A study of Mus musculus with 6 samples.

Results

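Tmem176a, Tmem176b, Ms4a4a, Ms4a4c, Ms4a6b, Ms4a6c, Ms4a6d and Ms4a7 encode small membrane proteins with 4 predicted membrane-spanning segments, and are described here in mouse macrophages exposed to medium of dying cartilage cells. These 8 genes, of 52550 in the deposited table, were found by their symbols, and all 8 passed the filter on low counts. They were chosen by their read counts in the same comparison that is described below, so their levels and fold changes are given as a description, with no test. The macrophages had been grown for 7 days from C57BL/6 bone marrow in M-CSF (macrophage colony-stimulating factor, 25 ng/ml). One set of 3 samples, AC CM, then received culture medium from apoptotic chondrocytes, the cells of cartilage, and the other set of 3, C CM, received medium from normal chondrocytes. A group without chondrocyte medium was not analysed here. Messenger RNA was sequenced, and gene counts summed to 70802852 to 80105872 per AC CM library and 65630784 to 68852308 per C CM library. Nothing in the labels gives each sample an animal or culture of its own. The p-values below therefore reflect sample-to-sample spread that could be technical only.

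The MS4A family (membrane-spanning 4-domains, subfamily A) sits as a gene cluster and includes the B cell antigen CD20 and the beta chain of the high-affinity IgE receptor. Its myeloid members lie at the cell surface or in endosomes and sit beside other receptors: MS4A4A associates with the fungal receptor Dectin-1 in macrophages, and mouse Ms4a6d has been described with the complement receptor Vsig4. Tmem176a and Tmem176b are related to each other, form cation channels of intracellular membranes, and have been studied in mouse dendritic cells, where Tmem176b is described as a brake on the inflammasome and the pair as part of MHC class II traffic.

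Both Tmem176 genes lie head to head on chromosome 6 (GRCm38), Tmem176b at 48833818 to 48841496 on the minus strand and Tmem176a at 48840919 to 48847071 on the plus strand. The sequences before their starts are shown because the starts are so close that both genes share them. In RefSeq (GRCm38.p6) the farthest upstream starts of the pair are 109 bases apart and point away from each other, and the capitals mark the 108 bases between them, read on each gene's own strand. Each line gives the 200 bases before the start, chr6:48841283-48841482 (plus strand) for Tmem176a and chr6:48841375-48841574 (minus strand) for Tmem176b. GENCODE places the first start of Tmem176a farther upstream, inside the Tmem176b gene. Its first start of Tmem176b, at 48841496, is also farther upstream than the RefSeq start.
Tmem176a: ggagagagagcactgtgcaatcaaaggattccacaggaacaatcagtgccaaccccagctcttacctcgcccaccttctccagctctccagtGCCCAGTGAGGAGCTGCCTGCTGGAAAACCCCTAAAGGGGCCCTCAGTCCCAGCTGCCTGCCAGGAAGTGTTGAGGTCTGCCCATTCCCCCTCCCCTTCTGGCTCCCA
Tmem176b: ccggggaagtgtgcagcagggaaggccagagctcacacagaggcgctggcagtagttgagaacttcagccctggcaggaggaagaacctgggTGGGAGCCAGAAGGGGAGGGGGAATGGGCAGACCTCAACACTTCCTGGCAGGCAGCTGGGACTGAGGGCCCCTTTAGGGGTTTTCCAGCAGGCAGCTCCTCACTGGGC

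The 6 MS4A genes lie on chromosome 19 in the order Ms4a7 (11321039 to 11336146, minus strand), Ms4a4a (11375523 to 11392790, plus), Ms4a4c (11404770 to 11427246, plus), Ms4a6c (11469366 to 11482192, plus), Ms4a6b (11516512 to 11531256, plus) and Ms4a6d (11586604 to 11604849, minus). Ms4a4a and Ms4a4c are shown because these neighbours differed in how they compared between the media. Their 200 bases before the RefSeq start, chr19:11375288-11375487 and chr19:11407461-11407660 (both plus strand), shared no identical run longer than 8 bases. This is not particular to the pair, since all other pairs of windows but Ms4a6b and Ms4a6c had a longest run of 7 to 9 bases. GENCODE places the first start of Ms4a4c farther upstream, at 11404770, so the window shown lies inside the annotated gene. The capitals mark the letters GAGGAA, the core of the motif of the myeloid factor PU.1.
Ms4a4a: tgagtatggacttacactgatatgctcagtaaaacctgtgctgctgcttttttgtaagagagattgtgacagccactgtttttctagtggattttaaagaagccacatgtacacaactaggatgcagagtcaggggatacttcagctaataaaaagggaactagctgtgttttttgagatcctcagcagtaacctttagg
Ms4a4c: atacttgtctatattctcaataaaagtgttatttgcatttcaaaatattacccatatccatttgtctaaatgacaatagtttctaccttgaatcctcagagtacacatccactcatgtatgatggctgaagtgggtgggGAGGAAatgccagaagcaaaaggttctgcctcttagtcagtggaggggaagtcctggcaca

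Ms4a6b and Ms4a6c are shown because, over the bases that align, their coding sequences are the most alike of all pairs of the 8 genes. Their windows, chr19:11518359-11518558 and chr19:11469168-11469367 (both plus strand), share an identical run of 48 bases, in capitals. The run begins 118 bases before the RefSeq start of Ms4a6b and 49 bases before that of Ms4a6c. GENCODE places the first start of Ms4a6b farther upstream, at 11516512, so its window lies inside the annotated gene.
Ms4a6b: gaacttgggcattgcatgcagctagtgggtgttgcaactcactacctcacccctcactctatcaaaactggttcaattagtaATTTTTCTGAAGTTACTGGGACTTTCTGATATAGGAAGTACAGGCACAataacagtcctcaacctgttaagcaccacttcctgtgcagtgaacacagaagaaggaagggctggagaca
Ms4a6c: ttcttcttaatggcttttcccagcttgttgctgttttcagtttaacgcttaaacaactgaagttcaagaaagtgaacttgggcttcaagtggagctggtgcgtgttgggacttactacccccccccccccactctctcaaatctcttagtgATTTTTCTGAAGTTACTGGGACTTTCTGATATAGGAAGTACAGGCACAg

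RefSeq windows were found for 7 of the 8 genes, all but Ms4a6d. GAGGAA, searched on both strands, was in 2 of the 7, Tmem176b (positions -123 to -118 from the start) and Ms4a4c (positions -61 to -56), and in 18.8% of 27025 promoter windows of the same length. TGANTCA (AP-1), GAAA followed after 2 bases of any kind by another GAAA (interferon regulatory factors), TTGCNNAA (C/EBP) and TATAAA, also searched on both strands, were in 0 of the 7 windows. They were in 5.55%, 2.33%, 7.47% and 10.6% of all windows. With the other motifs absent from these windows, no overlap with the GAGGAA matches was possible.

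Coding sequences showed how the proteins group. Ms4a6b and Ms4a6c had 85.8% identical bases where aligned, Ms4a6b and Ms4a6d 81.2%, and Ms4a6c and Ms4a6d 77.4%. Ms4a4a and Ms4a4c reached 68.4%. Tmem176a and Tmem176b were at 58.9%, inside the range of 54.1% to 61.7% between a Tmem176 gene and an MS4A gene. Counted over the longer coding sequence of a pair, Tmem176a and Tmem176b shared 53.2%, above the 48.2% to 52.1% between a Tmem176 gene and an MS4A gene. By that measure Ms4a6b was closer to Ms4a6d (80%) than to Ms4a6c (75.3%). Reads could be shared between genes to different degrees. None (0) of the 50-base stretches in Ms4a4a transcripts, and at most 3.57% in Ms4a6b, Ms4a6d, Ms4a7 and both Tmem176 genes, occur in transcripts of another gene. Ms4a4c shares 8.19%, mostly with its paralog Ms4a4b (7.73%). Ms4a6c shares 51.4%, mostly with BE692007, a transcript on the opposite strand that covers 53.1% of its exon bases. BE692007 carried 18797, 19447 and 19680 counts in AC CM and 14341, 18883 and 19003 in C CM, close to 0.5 of the Ms4a6c counts in each library (0.484 to 0.512 in AC CM, 0.470 to 0.500 in C CM). The sources used here do not say if reads were assigned by strand, and without that the reads over bases common to Ms4a6c and BE692007 cannot be told apart. Tmem176a and Tmem176b overlap by 578 bases of span but only 81 exon bases, 2.13% of the exon bases of Tmem176a and 3.42% of those of Tmem176b.

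Of the 8 genes, the Tmem176 pair differed most between the media. Tmem176b had 1638, 1899 and 1811 counts in AC CM and 8336, 7690 and 7864 in C CM. Scaled to library size as CPM, that is 23.5 ± 0.945 CPM in AC CM and 119 ± 7.49 in C CM (SD, n = 3 here and below), 5.06-fold lower after AC CM, with a log2 fold change of -2.34 (SE 0.08). Every AC CM library lay far below every C CM library, and the AC CM libraries were close together. Tmem176a had 1237, 1402 and 1656 counts in AC CM and 5077, 4387 and 4880 in C CM. Its means were 18.8 ± 1.72 CPM in AC CM and 71.5 ± 6.76 in C CM, 3.80-fold lower after AC CM, with a log2 fold change of -1.92 (SE 0.10). The counts of Tmem176b per count of Tmem176a were 1.32, 1.35 and 1.09 in AC CM and 1.64, 1.75 and 1.61 in C CM. This ratio was below every C CM value in every AC CM library.

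Ms4a4a, the Dectin-1 partner, was the only one of the 6 MS4A members with a difference of more than 2-fold. It had 7199, 8510 and 8770 counts in AC CM and 14460, 18063 and 18248 in C CM. Its level was 107 ± 4.52 CPM in AC CM and 252 ± 27.8 in C CM, 2.35-fold lower after AC CM (log2 fold change -1.23, SE 0.09). The AC CM libraries reached at most 110 CPM, and the lowest C CM library had 221 CPM.

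**Figure D1:**
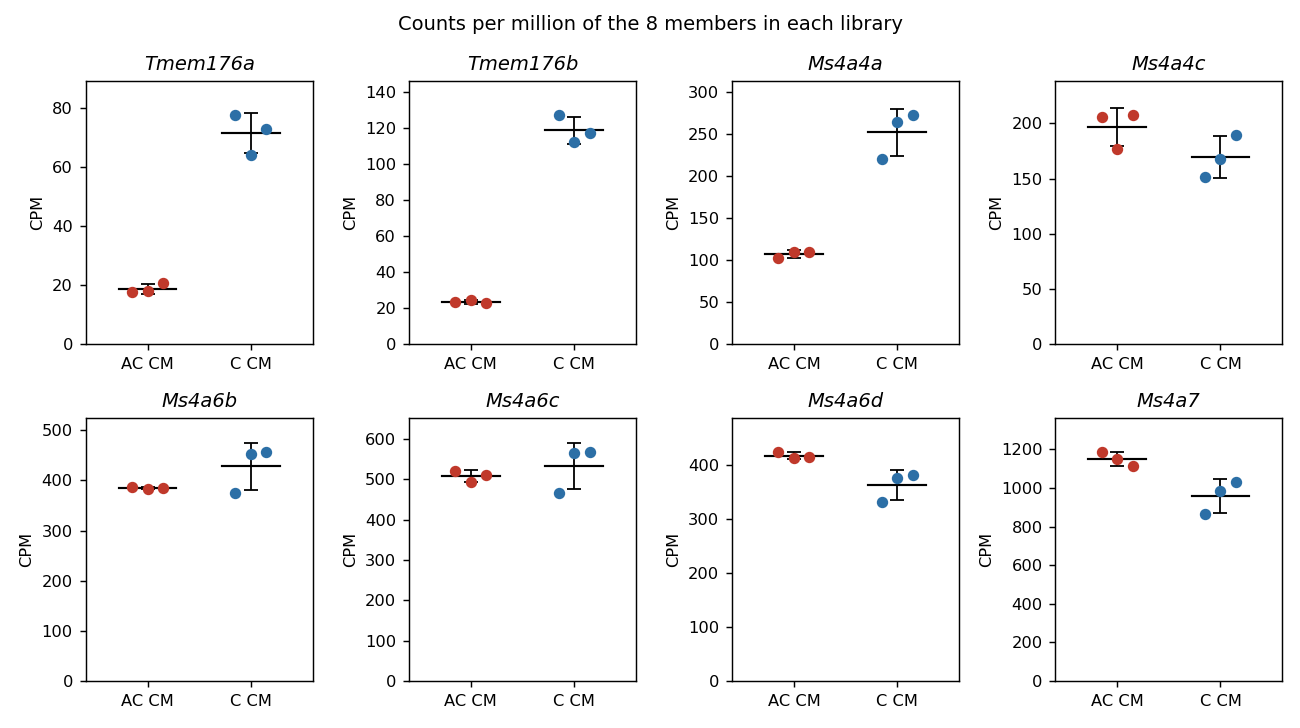
CPM, the counts scaled to library size (vertical axes, from 0) of each of the 8 genes in every library, AC CM in red and C CM in blue. Lines and bars are means ± SD of 3 libraries. Tmem176a, Tmem176b and Ms4a4a are lower in every AC CM library than in any C CM library; the other genes differ far less.

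The other 5 MS4A genes differed little between the media, by 1.2-fold at most. Ms4a7, which marks macrophages at the borders of the mouse brain, had 83608, 89185 and 88808 counts in AC CM and 56645, 67225 and 69051 in C CM. At 1151 ± 36.4 CPM in AC CM and 959 ± 85.9 in C CM, it was 1.2-fold higher after AC CM (log2 fold change 0.26, SE 0.07), and the groups did not overlap. Ms4a7 ranked number 83 of the 17863 genes tested by mean CPM in C CM.

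Ms4a6d, the Vsig4 partner in mice, had 29847, 31888 and 33068 counts in AC CM and 21748, 25713 and 25520 in C CM. It was at 417 ± 5.96 CPM in AC CM and 363 ± 27.1 in C CM (log2 fold change 0.20, SE 0.07), also without overlap. Ms4a4c had 14502, 13694 and 16527 counts in AC CM and 9959, 11475 and 12708 in C CM. At 197 ± 17.1 CPM in AC CM and 170 ± 18.98 in C CM (log2 fold change 0.21, SE 0.10) its groups overlapped, since AC CM replicate 2 lay below C CM replicate 3.

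Ms4a6b and Ms4a6c leaned the other way by less than the spread of the C CM libraries. Ms4a6b had 27192, 29659 and 30725 counts in AC CM and 24541, 31029 and 30580 in C CM, or 385 ± 1.30 CPM in AC CM and 428 ± 46.6 in C CM (log2 fold change -0.15, SE 0.08). Ms4a6c had 36736, 38047 and 40696 counts in AC CM and 30535, 38666 and 38002 in C CM, or 508 ± 14.9 CPM in AC CM and 533 ± 58.1 in C CM (log2 fold change -0.07, SE 0.08). In both genes the AC CM values fell inside the C CM range. Ms4a6c counts per Ms4a6b count were 1.35, 1.28 and 1.32 in AC CM and 1.244, 1.246 and 1.243 in C CM.

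Of the 8 genes, 3 were lower and 2 higher in all AC CM libraries than in any C CM library, and the groups of 3 overlapped. Over all 17863 genes tested, groups did not overlap in 44.7%, with 22.1% lower and 22.6% higher. At least 2-fold lower levels were seen in 3 of the 8 and in 6.91% of all genes tested. At an adjusted p under 0.05 in edgeR's test across all genes, 26.5% of genes were called, 13.3% lower and 13.3% higher. Among the 8 genes 3 were called lower (Tmem176a, Tmem176b and Ms4a4a) and 1 higher (Ms4a7), but the genes were chosen on these values and nothing is read from that count. The Ms4a7 call was lost without AC CM replicate 1, 2 or 3, without C CM replicate 2, and when AC CM replicates 2 and 3 were both dropped. The median log2 fold change of the 8 was -0.11, against -0.0046 for all genes tested. In the authors' deposited table the log2 fold changes were -2.33 for Tmem176b, -1.92 for Tmem176a, -1.23 for Ms4a4a, 0.27 for Ms4a7, 0.22 for Ms4a4c, 0.21 for Ms4a6d, -0.06 for Ms4a6c and -0.15 for Ms4a6b.

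C CM replicate 1 stood apart from the other C CM libraries, with a chi-square per gene of 57.1 and 58.5 against them, where they differed from each other by 25.4. All 6 MS4A genes were lowest there among the C CM libraries, as were 39.9% of all genes tested, while both Tmem176 genes were highest there. Without that library the log2 fold changes were -1.32 for Ms4a4a, -0.24 for Ms4a6b, -0.16 for Ms4a6c, 0.14 for Ms4a4c, 0.14 for Ms4a6d and 0.19 for Ms4a7, against -2.29 for Tmem176b and -1.86 for Tmem176a. AC CM replicates 2 and 3 held more of the hepatocyte transcript Alb, which was at 469 and 971 CPM there, at 38.1 in AC CM replicate 1 and at 30.1, 1.32 and 0.254 in C CM replicates 1 to 3. With both left out, the log2 fold changes were -2.36 for Tmem176b, -2.03 for Tmem176a, -1.31 for Ms4a4a and 0.30 for Ms4a7. With all libraries they were -2.34, -1.92, -1.23 and 0.26. The AC CM library that remained also held Alb, and the part of hepatocyte transcripts in the differences was not tested.

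Levels of different genes were compared per kilobase of exon, over the exons of all annotated transcripts of a gene, which puts genes with long alternative forms lower. In AC CM, Ms4a7 came first with 259 ± 8.18 CPM per kb, then Ms4a6c (248 ± 7.27), Ms4a6d (240 ± 3.44), Ms4a4a (128 ± 5.41), Ms4a4c (112 ± 9.74), Ms4a6b (85.8 ± 0.290), Tmem176b (9.91 ± 0.399) and Tmem176a (4.94 ± 0.450). The ranges of the first 3 ran into each other, and those of the other neighbours in this order did not overlap. In C CM, Ms4a4a came first with 302 ± 33.3 CPM per kb, then Ms4a6c (260 ± 28.3), Ms4a7 (215 ± 19.3), Ms4a6d (209 ± 15.6), Ms4a4c (97.0 ± 10.8), Ms4a6b (95.5 ± 10.4), Tmem176b (50.2 ± 3.16) and Tmem176a (18.8 ± 1.77). Here neighbours overlapped from Ms4a4a to Ms4a6d and between Ms4a4c and Ms4a6b. Ms4a4a thus held place 4 in AC CM and place 1 in C CM, and no other gene moved by more than 2 places.

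**Figure D2:**
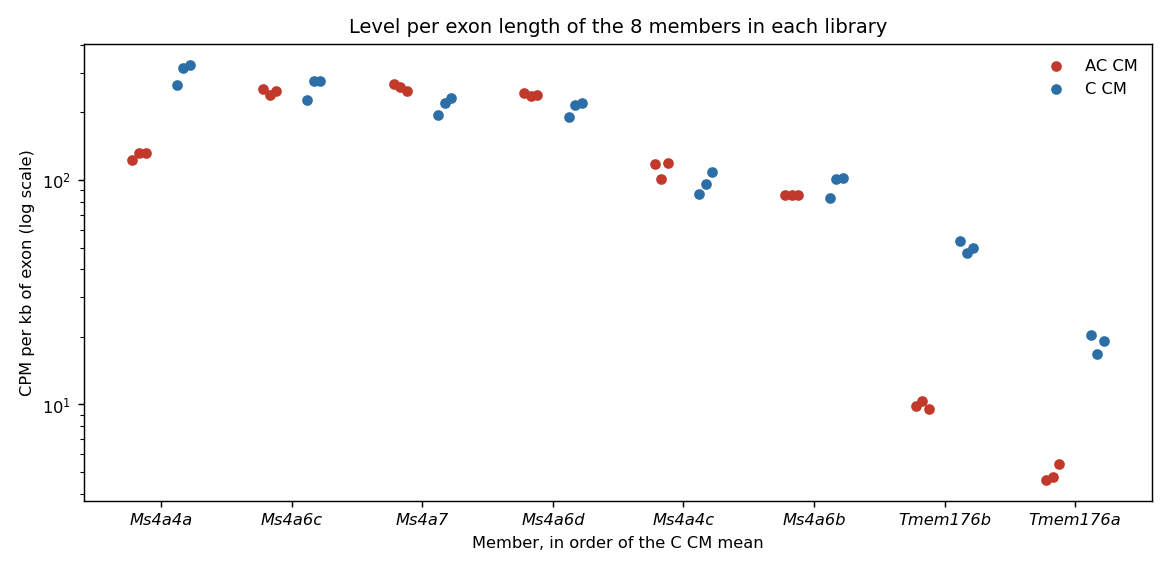
CPM per kilobase of exon (log scale) of each gene in every library, AC CM in red and C CM in blue, ordered by the C CM mean. Ms4a4a is at 128 CPM per kb in AC CM and 302 in C CM, and the Tmem176 genes are the lowest of the 8 in both groups.

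For each of the 8 genes the most similar pattern over the 6 libraries was looked up among 10298 genes. These had a mean of at least 5 CPM, and symbols of predicted or unnamed genes (such as Gm or Rik symbols) were left out. The closest gene was the one with the smallest Euclidean distance between log2 levels centred on each gene's mean. Tmem176b was closest to Lpcat2 (distance 0.193; 21.4 ± 0.969 CPM in AC CM and 104 ± 3.46 in C CM). Tmem176a was closest to Cdh5 (0.156; 8.42 ± 0.318 CPM in AC CM and 32.1 ± 4.48 in C CM) and Ms4a4a to Klhl24 (0.120; 73.9 ± 1.25 CPM in AC CM and 170 ± 16.4 in C CM). The genes with small differences had nearer matches, at distances below 0.1. These were Ms4a7 with Fam20b (0.0418), Ms4a6d with Gmpr2 (0.0394), Ms4a4c with Cdk8 (0.0673), Ms4a6c with Scaper (0.0507) and Ms4a6b with Dnajc13 (0.0217).

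The table lists 13 further MS4A genes, of which 6 passed the filter on low counts. Of these 6, 3 fell, 0 rose and 3 did not pass the edgeR test, with a median log2 fold change of -0.79. Among all genes tested, 13.3% fell and 13.3% rose. Ms4a3, a marker of granulocyte and monocyte progenitors in mice, had 132, 114 and 126 counts in AC CM and 370, 529 and 447 in C CM. It fell by 2.02 on the log2 scale (SE 0.19, adjusted p = 1.09e-04). Ms4a1, which encodes the B cell antigen CD20, had 24, 34 and 22 counts in AC CM and 96, 81 and 121 in C CM, which puts its log2 fold change at -2.07 (SE 0.34, adjusted p = 0.00232). Ms4a4b, known from mouse T cells, had 243, 207 and 220 counts in AC CM and 355, 410 and 500 in C CM, which puts it at -1.09 (SE 0.19, adjusted p = 0.00276). None of the 3 overlapped between the groups, as was the case for 44.7% of all genes tested (22.1% lower). The 3 had already been called, so nothing is read from that count. The mean of each was under 7 CPM even in C CM. A fit without AC CM replicates 2 and 3 put Ms4a1 at -2.13 (adjusted p = 0.0502) and Ms4a4b at -0.87 (adjusted p = 0.120).

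Ms4a14, the neighbour of Ms4a7, was the other abundant gene of the family. It was at 104 ± 3.15 CPM in AC CM and 88.6 ± 15.1 in C CM (log2 fold change 0.23, SE 0.12, adjusted p = 0.173). Ms4a7 had 11.1 ± 0.682 counts per Ms4a14 count in AC CM and 10.9 ± 1.03 in C CM. Ms4a4d was at -0.29 on the log2 scale (SE 0.40, adjusted p = 0.639). Ms4a8a, known from alternatively activated mouse macrophages, had 40, 0 and 5 counts in AC CM and 21, 15 and 23 in C CM (adjusted p = 0.795). Ms4a2, the IgE receptor chain, was filtered out with 8, 0 and 5 counts in AC CM and 6, 16 and 15 in C CM. Ms4a15 had 2 counts in C CM replicate 3 and 0 elsewhere. Ms4a5, Ms4a10, Ms4a12, Ms4a13 and Ms4a18 had 0 counts in every library. All 37 mitochondrial genes of the table were at 0 as well, so a 0 here can mean that a gene was not counted. For a counted gene, a count of 0 allows up to 3 counts, or 0.0375 to 0.0457 CPM, in a library, counting error only.

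**Figure D3:**
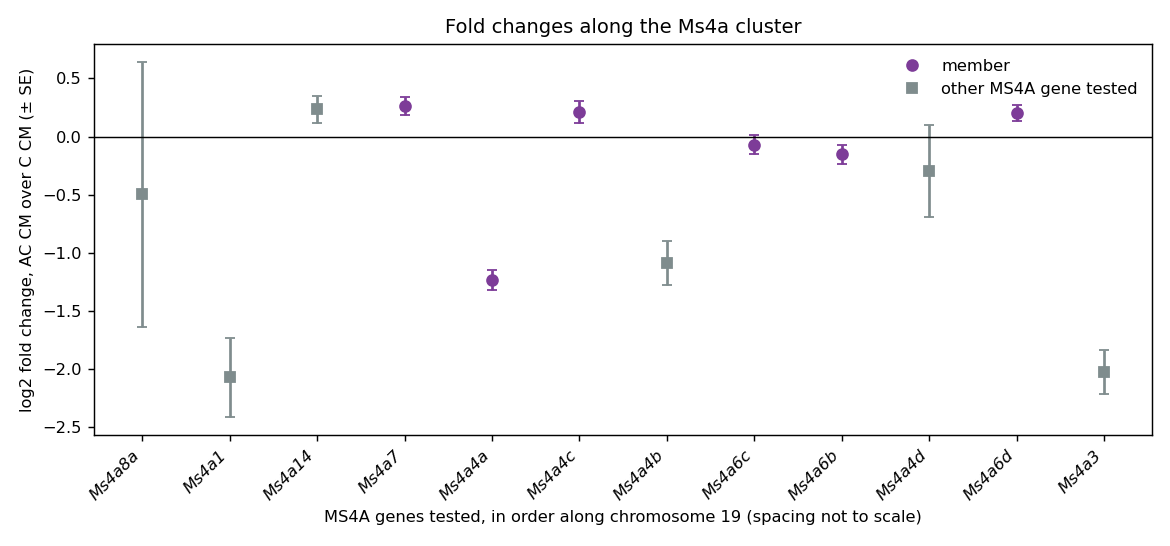
Log2 fold change of AC CM over C CM with its SE (vertical axis) for the MS4A genes tested, in order along chromosome 19. Circles are members and squares the other MS4A genes. Ms4a4a is at -1.23 between Ms4a7 (0.26) and Ms4a4c (0.21).

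Markers of other bone marrow cells were measured beside these genes, and their part in the differences was not tested. In bulk RNA, fewer cells of a type and less RNA per cell cannot be told apart. For comparison with the counts below, 13.3% of all genes tested fell and 13.3% rose. Of 12 B, T and NK cell markers 10 were tested and 9 fell, with summed levels of 29.3 to 32.7 CPM in AC CM and 169 to 195 in C CM. The B cell gene Ighm made up most of these sums, with means of 21.1 CPM in AC CM and 151 in C CM. Cd79b, also of B cells, came next with 8.65 and 20.5 CPM. Every other marker on this list had a mean of at most 2.34 CPM in both groups, so the sums say little about T and NK cells. Of 12 granulocyte markers 10 fell (192 to 208 CPM summed in AC CM, 877 to 1028 in C CM), and of 12 monocyte markers 8 fell (1159 to 1223 in AC CM, 1777 to 2016 in C CM). The largest part of the monocyte sum was Fn1, which did not pass. Its level, 853 ± 50.5 CPM in AC CM and 951 ± 29.6 in C CM, differed less than the sum. Of 13 dendritic cell markers 12 were tested and 10 fell (257 to 291 CPM in AC CM, 402 to 435 in C CM). Most of that sum was Irf8, and without it, left out after its values were seen, the list summed to 20.3 to 23.9 CPM in AC CM and 76.5 to 88.3 in C CM. Of 7 mast cell and basophil markers 6 were tested and 3 fell, and the defining marker Fcer1a was at 0 in every library (list sums 4.60 to 5.61 CPM in AC CM, 16.8 to 19.2 in C CM). Of 12 macrophage markers 4 fell and 8 did not pass, with sums of 22762 to 23616 CPM in AC CM and 25322 to 26725 in C CM, and F4/80 (Adgre1), the usual surface marker, was at 1967 ± 27.8 CPM in AC CM and 2248 ± 231 in C CM. Of 8 fibroblast markers 5 fell (3474 to 3561 in AC CM, 4253 to 5265 in C CM). Of 8 chondrocyte markers 5 were tested and 1 rose (108 to 110 in AC CM, 70.8 to 82.8 in C CM). The gene that rose, Col11a1, carried most of the difference between these sums, at 62.5 ± 1.58 CPM in AC CM and 35.6 ± 1.67 in C CM. The other 4 did not pass, among them Col2a1 at 43.7 ± 2.30 CPM in AC CM and 38.3 ± 4.24 in C CM. Of 10 hepatocyte markers 1 fell and 9 did not pass, with sums of 354 to 1791 CPM in AC CM and 516 to 596 in C CM. The gene that fell, Trf, carried most of the C CM sum. The other 9 had higher means in AC CM, and without Trf (left out after its values were seen) the sums were 49.9, 598 and 1385 CPM in AC CM replicates 1 to 3 and 43.7, 1.62 and 0.537 in C CM replicates 1 to 3.

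The genes around the members were compared next, as log2 fold changes of AC CM over C CM. On the side of Tmem176b, the 5 nearest tested genes belong to the Gimap cluster, which encodes GTPases best known from lymphocytes. Of these, Gimap1 (log2 fold change -1.94, SE 0.38, adjusted p = 0.00577) and Gimap3 (-1.44, SE 0.29, adjusted p = 0.00647) fell, and Gimap5 (-1.43, adjusted p = 0.0557), Gimap7 (-3.06, 0.0900) and Gimap1os (-1.57, 0.131) did not pass. Their levels were low: Gimap3 was at 0.729 ± 0.0338 CPM in AC CM and 1.98 ± 0.524 in C CM, beside 23.5 and 119 CPM for Tmem176b. A fit with AC CM replicate 1 as the lone AC CM library left Gimap1 at -1.68 (adjusted p = 0.129) and Gimap3 at -1.46 (adjusted p = 0.117), so neither passed there. On the side of Tmem176a, Igf2bp3, which encodes an RNA-binding protein, rose by 1.53 on the log2 scale (SE 0.09, adjusted p = 1.07e-05), with 72.3 ± 2.53 CPM in AC CM and 25.0 ± 2.66 in C CM. Gpnmb, a glycoprotein gene of macrophages rich in lysosomes, rose by 0.31 (SE 0.05, adjusted p = 0.00269), at 5238 ± 80.1 CPM in AC CM and 4218 ± 155 in C CM. In the fit with a lone AC CM library Gpnmb was at 0.33 and did not pass (adjusted p = 0.169). The other 3 genes on that side did not pass in the fit to all 6 libraries.

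Beside the Ms4a cluster 3 of 10 genes rose and 1 fell, where 13.3% of all genes tested rose and 13.3% fell. Tmem132a was at -0.53 on the log2 scale (SE 0.09, adjusted p = 0.00272) and the nucleolar protein gene Ccdc86 at 0.44 (SE 0.09, adjusted p = 0.00592). On the far side were Stx3, a gene of membrane fusion, at 0.55 (SE 0.14, adjusted p = 0.0183), and Patl1, of messenger RNA decay, at 0.31 (SE 0.08, adjusted p = 0.0199). The Stx3 call was lost without AC CM replicate 1, 2 or 3 (adjusted p = 0.0522 to 0.0587) and the Patl1 call without AC CM replicate 1 (0.0692) or 3 (0.0889). In the fit with a lone AC CM library all 4 calls were lost, with log2 fold changes of -0.57 for Tmem132a (adjusted p = 0.0912), 0.45 for Ccdc86 (0.161), 0.56 for Stx3 (0.196) and 0.31 for Patl1 (0.271). Inside the cluster 9 other genes were tested. AW112010 fell by 1.29 (SE 0.13, adjusted p = 1.59e-04; 9.42 ± 0.330 CPM in AC CM, 23.0 ± 3.403 in C CM), and 8 did not pass, BE692007 among them (-0.02, SE 0.10, adjusted p = 0.885).

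**Figure D4:**
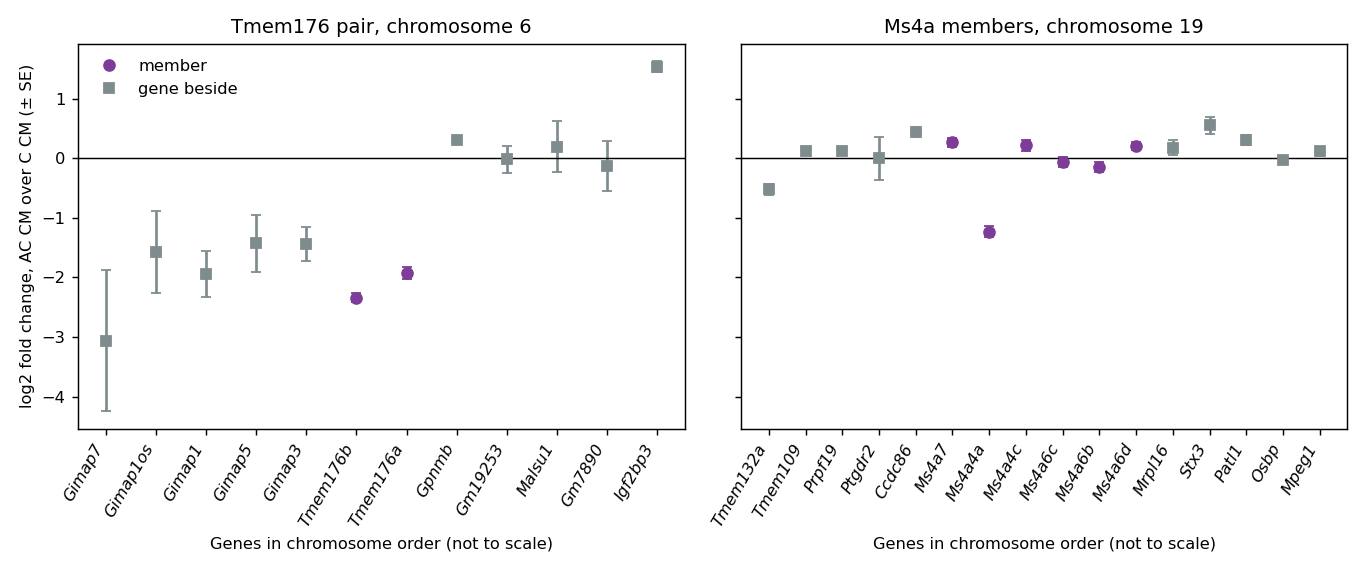
Log2 fold change of AC CM over C CM with its SE for the members (circles) and the 5 nearest tested genes on each side (squares), in chromosome order and not to scale. Left, the Tmem176 pair lies between Gimap genes at -1.43 to -3.06 and Gpnmb at 0.31. Right, Ms4a4a is the lowest point drawn, at -1.23. Tested genes inside the Ms4a cluster that are not members are not drawn. Some of them are lower, such as Ms4a1 (-2.07), Ms4a3 (-2.02) and AW112010 (-1.29).

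Genes whose products have been described together with these proteins were counted from a list. Of 13 listed, 9 fell, 1 rose and 3 did not pass, with a median log2 fold change of -0.77. Over all genes tested, 13.3% fell and 13.3% rose, with a median of -0.0046. The list was chosen with earlier results of these data known. The class II genes Cd74, H2-Aa, H2-Ab1 and H2-Eb1 are among those that fell, so nothing is read from the count. Clec7a, the Dectin-1 gene, was at 73.2 ± 7.78 CPM in AC CM and 192 ± 28.8 in C CM, and fell by 1.39 on the log2 scale (SE 0.12, adjusted p = 8.13e-05). Transcripts of Dectin-1 and of its partner Ms4a4a were thus both lower after AC CM. Syk, the kinase that acts below Dectin-1, fell by 0.61 (SE 0.06, adjusted p = 9.4e-05), at 270 ± 3.68 CPM in AC CM and 413 ± 9.87 in C CM. Trem2, a lipid receptor whose shed form is tied to the MS4A locus in humans, fell by 0.44 (SE 0.08, adjusted p = 0.0042), at 597 ± 19.02 CPM in AC CM and 812 ± 89.4 in C CM. In the fit with a lone AC CM library it was at -0.43 and did not pass (adjusted p = 0.155). The Trem2 adaptor gene Tyrobp was at 0.07 (SE 0.07, adjusted p = 0.506).

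Vsig4, the Ms4a6d partner, was scarce at 1.84 ± 0.167 CPM in AC CM and 4.95 ± 1.11 in C CM, and fell by 1.42 on the log2 scale (SE 0.21, adjusted p = 0.00134). Ms4a6d itself was at a log2 fold change of 0.20. Among the inflammasome genes, Casp1, of the processing protease, rose by 0.56 (SE 0.10, adjusted p = 0.00355; 96.5 ± 2.45 CPM in AC CM, 65.5 ± 8.98 in C CM). The sensor gene Nlrp3 was at 0.13 (SE 0.07, adjusted p = 0.254) and the adaptor gene Pycard at 0.01 (SE 0.08, adjusted p = 0.957). Il1b, the cytokine that the inflammasome matures, was at -0.77 (SE 0.22, adjusted p = 0.0326), a call lost without AC CM replicate 2 (0.0945) or 3 (0.0735), without C CM replicate 2 (0.0875) or 3 (0.0978), and with a replicate block (0.0538). The fit with a lone AC CM library also ended the calls of Il1b (-0.54, adjusted p = 0.362), Vsig4 (-1.31, 0.0605) and Casp1 (0.54, 0.099995). The class II genes on the list, in whose traffic the Tmem176 pair is described, all fell, with log2 fold changes of -3.75 (Cd74), -3.78 (H2-Aa), -3.56 (H2-Ab1) and -3.61 (H2-Eb1; adjusted p at most 7.07e-06 for the 4 genes), beside -2.34 for Tmem176b and -1.92 for Tmem176a.

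**Figure D5:**
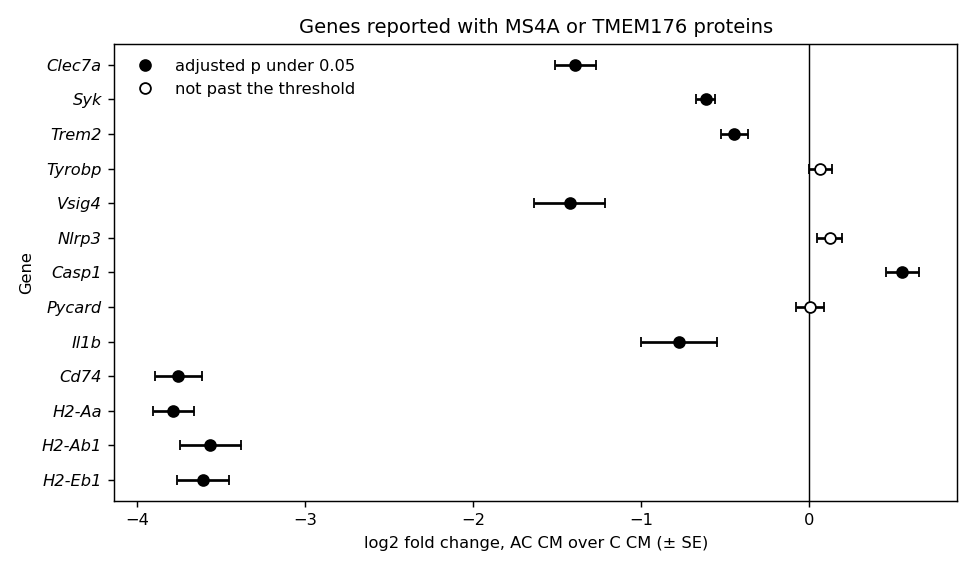
Log2 fold change of AC CM over C CM with its SE (horizontal axis) for the 13 listed genes. Filled points have an adjusted p under 0.05 in edgeR's test. Clec7a is at -1.39 and Vsig4 at -1.42, while Casp1 is at 0.56.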

How the data were processed

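Messenger RNA of 6 macrophage samples was grouped by the medium in each sample's title, 3 AC CM and 3 C CM. The authors deposited whole-number read counts per gene without normalization, as the differing totals show, along with their normalized signal (counts divided by a constant per sample), their log2 fold changes and their p-values. The deposited signal and p-values were not used, and the deposited log2 fold changes were copied for comparison. The submitters' processing notes name HISAT2 2.1.0, fastp 0.17.1, R 3.4.3 and DESeq2 1.18.1 without their roles. Counting program, strand handling and genome build: not given in the sources used here. Low counts favoured multiples of 4 (in each library more genes had a count of 4, 8 or 12 than of 3, 7 or 11), so a count may stand for less than 1 independent fragment, and totals may overstate depth. Of identifiers matched to GENCODE M21 (GRCm38), 95.2% had the same coordinates there.

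Counts were filtered with filterByExpr, TMM-scaled and put through edgeR's (4.0.16, R 4.3.3) robust quasi-likelihood F-test, with Benjamini-Hochberg adjustment over all 17863 genes tested. DESeq2 1.42.0 and limma 3.58.1 were alternatives. Exon lengths, transcripts and coding sequences came from GENCODE M21 and promoters from RefSeq. Coding sequences were aligned with Biopython 1.88, and figures used matplotlib 3.10.9. For pattern distances 0.1 CPM was added before taking log2. Where a symbol repeats, the entry with most counts was used. The genes and lists were chosen with earlier results of these data known. Named are the 8 genes, other MS4A genes that passed the filter, genes beside them past the threshold, the listed partners and the gene nearest in pattern. Alb, Trf, Irf8, Fn1, Ighm, Col11a1, Col2a1 and BE692007 were named after their values were seen. So were the genes that were filtered out or beside the loci without passing.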

Additional observations from a re-analysis of the deposited data

How the results depend on the processing

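The same 3 of the 8 genes (Tmem176a, Tmem176b and Ms4a4a) were at least 2-fold lower in AC CM under each of the 14 alternatives, and no member changed direction. Log2 fold changes ran from -2.38 to -2.29 for Tmem176b, -2.03 to -1.86 for Tmem176a, -1.32 to -1.17 for Ms4a4a and 0.19 to 0.32 for Ms4a7, and stayed between -0.24 and -0.10 for Ms4a6b, -0.16 and -0.02 for Ms4a6c, 0.14 and 0.24 for Ms4a6d and 0.14 and 0.30 for Ms4a4c. Dropping AC CM replicates 2 and 3 together (the lone AC CM library is then assumed to vary as the C CM libraries do) left 1298 genes called in place of 4741, 1 other MS4A gene (Ms4a3) in place of 3, and 2 genes beside the members in place of 8; that fit has fewer samples. Leaving out 1 library gave 3172 to 5069 genes, 3 other MS4A genes each time, and 6 to 9 genes beside the members. With a replicate block 4397 genes were called, 3 other MS4A genes and 9 beside the members. Libraries with the same replicate number did not deviate together (correlations of deviations -0.115, -0.0336 and -0.0150). This cannot show that the samples were unpaired, and the labels do not say. DESeq2 called 5516 genes and counts divided by 4 gave 4870. Pycard, not called, was at -0.00071 with at least 1 CPM in 3 libraries and at -0.0344 to 0.0930 with 1 library left out. Ms4a8a, also not called, was at -3.15 to 0.0815 with 1 library left out and at 0.936 without AC CM replicates 2 and 3; the cause was not tested. Low counts limit the scarce MS4A and Gimap genes.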
